A study of Schizosaccharomyces pombe with 12 samples.

Results

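The stress-response genes described here are from the fission yeast Schizosaccharomyces pombe, followed in ribosome footprints and total RNA of 2 strains. The genes were chosen with earlier results of these data known, through a rule on systematic IDs that itself uses no measured value. They are 9 of the 5136 genes in each count table. Of these, 5 belong to the stress-activated MAP kinase pathway: wis1 (SPBC409.07c.1), sty1 (SPAC24B11.06c.1), atf1 (SPBC29B5.01.1), pcr1 (SPAC21E11.03c.1) and pyp2 (SPAC19D5.01.1). The other 4 make or break down the protective solutes trehalose and glycerol: tps1 (SPAC328.03.1), tpp1 (SPAC19G12.15c.1), ntp1 (SPBC660.07.1) and gpd1 (SPBC215.05.1). The study set a wild type against delta4dus, a strain whose name reads as a deletion of the 4 dihydrouridine synthase genes dus1 to dus4, which place dihydrouridine in RNA. Both strains were harvested by filtration in mid-log growth, with no cycloheximide added to the cultures and no stress treatment named in the labels. Each genotype has 3 footprint libraries (protected fragments of 28 to 32 nt from monosomes) and as many of total RNA, with the replicate letters A, B and C. The labels give neither the strain background nor the medium, and they do not say whether the letters are separate cultures, so p-values may measure technical spread.

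In the pathway, signals from outside pass through a phosphorelay to MAP kinase kinase kinases, then to the MAP kinase kinase Wis1 and to the MAP kinase Sty1. Active Sty1 acts on Atf1, a bZIP transcription factor that pairs with Pcr1 and binds the cyclic AMP response element (CRE), and the tyrosine phosphatase Pyp2 switches Sty1 off again. Transcripts of pyp2, gpd1, ntp1 and tps1 are known to be induced through this route under stress. Tps1 makes trehalose-6-phosphate from UDP-glucose and glucose-6-phosphate, Tpp1 removes the phosphate to give trehalose, and Ntp1, the neutral trehalase, splits trehalose into glucose. Gpd1 is the glycerol-3-phosphate dehydrogenase that leads to glycerol, the solute that balances high external salt.

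The footprint libraries held between 601969 and 2591755 counts, with wild type replicates B and C the shallowest, and the total RNA libraries held between 1886954 and 2199320. Values below are CPM, read counts per 1e6 counts of a library total adjusted by edgeR's TMM factor. Fold changes are delta4dus over wild type, and a gene is called when its adjusted p, from edgeR's quasi-likelihood test with Benjamini-Hochberg adjustment over all genes tested, is under 0.05. The labels were checked on the deleted genes: 4 of 4 dus genes had fewer footprints (in CPM) in every delta4dus library than in any wild type library, although dus4 kept up to 22 counts in a delta4dus library. The cells are labelled as mid-log cells. Of 12 markers of meiosis and sporulation, 3 were tested (spo15, mde4 and rec10) and 0 called, and 9 were too low to test. The summed level of the 12 was 221.4 to 245 CPM in wild type, against 231 to 243 CPM in delta4dus. Most of it came from spo15 (192 CPM in wild type, 193 CPM in delta4dus). The sum and the calls thus rest on the 3 tested genes and cannot show whether meiotic cells were present. The meiotic gene moa1 had no count in any library. Among the markers too low to test, meu14 went from 1.17 to 7.46 CPM and spo6 from 0.9503 to 4.21 CPM in the means of 3 libraries, and 1 marker was called higher with no filter and in 3 of the 6 fits that left out a library. Their part in the results below was not tested. In these bulk libraries, fewer cells with a transcript and less of it per cell cannot be told apart.

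In footprints, 4 of the 9 genes rose in delta4dus (tps1, atf1, ntp1 and gpd1), wis1 fell slightly, a call that 5 of 13 alternatives lost at a like fold change, and sty1, pcr1 and tpp1 were not called. The other gene, pyp2, had too few footprints to be tested, so 8 members passed the filter on low counts. Over all 4505 genes tested, 28.6% were called, 14.5% as higher and 14.1% as lower. The 4 genes that rose stood at places 49 (tps1), 85 (atf1), 100 (ntp1) and 201 (gpd1) in the order of footprint fold changes from the highest. For 6 of the 8 members tested the 2 genotypes did not overlap in CPM, as for 38.8% of all genes tested.

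**Figure D1:**
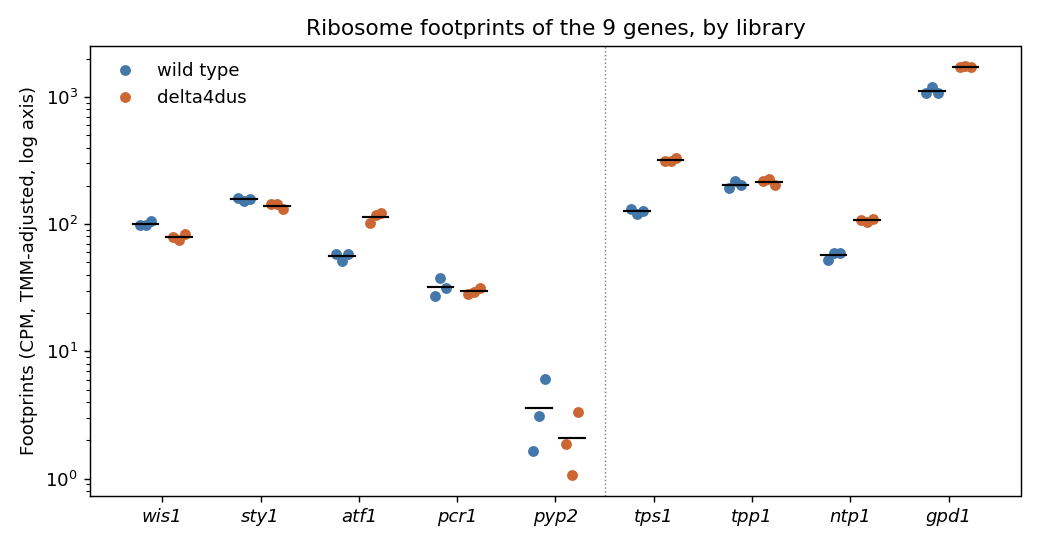
Footprints of the 9 genes in each library, in TMM-adjusted CPM on a log axis, with wild type in blue, delta4dus in orange, 3 points per group for replicates A to C and a black bar at the group mean. The delta4dus points lie above all wild type points for atf1, tps1, ntp1 and gpd1 and below them for wis1 and sty1.

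The kinase genes wis1 and sty1 had no more footprints in delta4dus than in wild type. The MAP kinase kinase gene wis1 had 98.1, 98.2 and 106 CPM in wild type replicates A, B and C and 79.2, 75.0 and 83.8 CPM in delta4dus. The genotypes did not overlap, with delta4dus the lower by a modest margin. The fitted level in delta4dus was 79.4% of that in wild type, a log2 fold change of -0.33 with an SE of 0.116 (edgeR quasi-likelihood, adjusted p = 0.0235). The size of the change hardly moved among the alternatives that lost the call, while its adjusted p passed 0.05. The log2 fold change was -0.32 with DESeq2 (adjusted p = 0.150) and -0.36 after thinning all libraries to equal depth (adjusted p = 0.129). Leaving out 1 library gave -0.36 for wild type A (adjusted p = 0.0729), -0.30 for wild type C (adjusted p = 0.0867) and -0.29 for delta4dus B (adjusted p = 0.0878), all in edgeR. The MAP kinase gene sty1 had 162, 151 and 158 CPM in the wild type libraries, against 144, 144 and 131 CPM in delta4dus. Its groups did not overlap either, but the change was not called (log2 fold change -0.19, 95% interval -0.37 to -0.01, adjusted p = 0.118 in edgeR). Sty1 became a call with library totals in place of TMM (-0.39, adjusted p = 0.00082) and when a mean of 50 counts was required (-0.24, adjusted p = 0.0318). With library totals the median change of all genes itself moved by -0.20, and relative to that median sty1 stood at -0.16 under both scalings.

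Both partners of the transcription factor were measured, and only one of them was called. Footprints of atf1 were 58.1, 51.5 and 57.9 CPM in wild type, against 103, 118 and 122 CPM in delta4dus. The groups were well apart, with the lowest delta4dus library far above the highest wild type library. Atf1 footprints were 2.03-fold higher (95% interval 1.71 to 2.41, adjusted p = 1.77e-10, edgeR quasi-likelihood). Those of pcr1 were 27.4, 37.4 and 31.4 CPM in wild type, against 28.1, 29.3 and 31.5 CPM in delta4dus, with overlapping groups. Its fold change was 0.975, with an interval from 0.741 to 1.28, so a change of less than that size in either direction cannot be seen at this depth of 24 to 76 counts per library. The balance of the partners was compared within each library, where it does not depend on scaling. Per kb of coding sequence, atf1 had 0.643, 0.417 and 0.560 times the footprints of pcr1 in wild type, and 1.11, 1.22 and 1.17 times in delta4dus. The ratio was higher in 3 of 3 delta4dus libraries (difference in log2 1.13, exact two-sided permutation p = 0.1, the smallest that 3 against 3 libraries allow, and 0.125 adjusted over 5 such pairs chosen after the values were seen).

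The phosphatase gene pyp2, a textbook target of the pathway, was nearly free of footprints. It had 3, 2 and 5 counts in wild type and 3, 2 and 8 in delta4dus, which is 1.64, 3.12 and 6.03 CPM against 1.87, 1.06 and 3.32 CPM. The groups overlapped, and the row did not pass the filter, so no fold change is given. With 2 to 8 counts per library, a difference between the strains was not detectable at this depth. Pyp2 was also the lowest of the 9 genes per kb of coding sequence in both strains, at 1.69 ± 1.05 CPM per kb in wild type and 0.976 ± 0.535 in delta4dus (SD, n = 3).

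Among the trehalose genes, the synthase and the trehalase rose and the phosphatase was not called. Footprints of tps1 were 130.4, 120.1 and 128 CPM in wild type, against 311, 313 and 329 CPM in delta4dus. The genotypes did not overlap, and the lowest delta4dus library lay far above the highest wild type library. This was the largest rise of the 8 genes tested, 2.49-fold (95% interval 2.23 to 2.79, adjusted p = 1.21e-23, edgeR quasi-likelihood). The phosphatase gene tpp1, which acts on the product of Tps1, had 192, 217 and 204 CPM in wild type, against 218, 226 and 202 CPM in delta4dus. Its groups overlapped, and its fold change of 1.07 had an interval from 0.956 to 1.19 (adjusted p = 0.424, edgeR), and it turned to -0.11 on the log2 scale with library totals in place of TMM. The neutral trehalase gene ntp1 had 52.6, 59.3 and 59.1 CPM in wild type, against 107, 104 and 109.5 CPM in delta4dus. All its delta4dus libraries were above all its wild type libraries, with a 1.92-fold rise (1.61 to 2.29, adjusted p = 2.84e-09, edgeR quasi-likelihood).

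Ratios of footprints between the trehalose genes, which restate the fold changes above within each library, differed between the libraries of the 2 strains. Per kb of coding sequence, wild type had 1.08, 0.882 and 0.998 times as many footprints on tps1 as on tpp1, close to parity. In delta4dus the same ratio was 2.27, 2.21 and 2.59. Between tps1, which leads to trehalose, and ntp1, which removes it, the ratio went from 3.55, 2.90 and 3.10 to 4.15, 4.30 and 4.30. Neither ratio overlapped between the genotypes, and for both the exact two-sided permutation p was 0.1, the smallest possible here (0.125 adjusted over the 5 pairs). These pairs were chosen after the values were seen. The ratio of sty1 to wis1, in comparison, overlapped between the strains (2.58 to 2.85 against 2.70 to 3.33, exact permutation p = 0.2).

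The glycerol gene gpd1 had by far the most footprints of the set. It had 1081, 1193 and 1073 CPM in wild type, against 1716, 1736 and 1711 CPM in delta4dus, with no overlap. The rise was 1.55-fold (95% interval 1.45 to 1.66, adjusted p = 4.90e-18, edgeR quasi-likelihood), smaller than that of tps1. The ratio of gpd1 to tps1 fell in each delta4dus library from 11.0, 13.2 and 11.2 to 7.34, 7.39 and 6.93 (exact permutation p = 0.1).

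**Figure D2:**
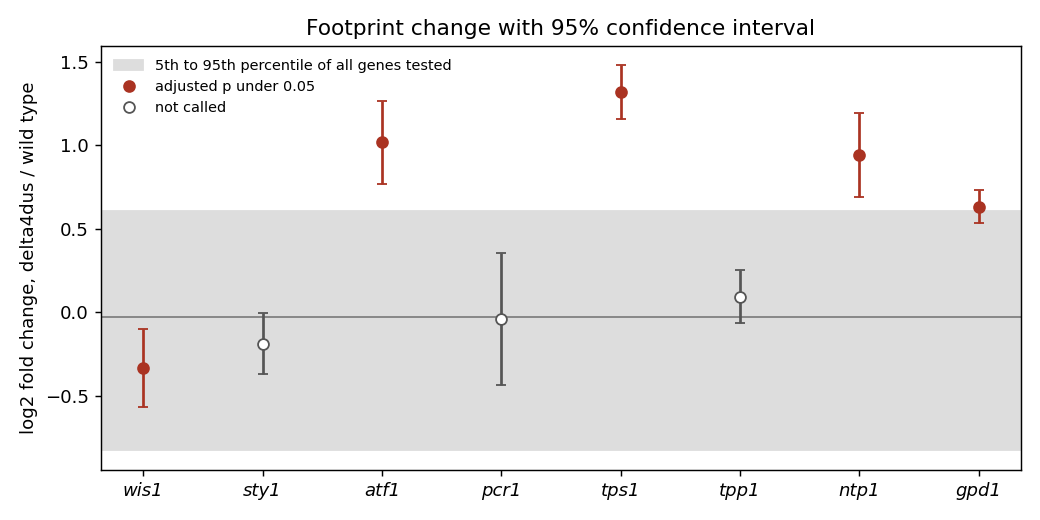
Footprint log2 fold change of the 8 genes tested, with 95% confidence intervals from the edgeR fit. Filled red points are called, open points are not, the grey band spans the 5th to 95th percentile of all 4505 genes (-0.83 to 0.61) and the grey line is their median (-0.03). Tps1, atf1, ntp1 and gpd1 lie above the band, gpd1 by a small margin.

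The order of the levels changed with these rises. Per kb of coding sequence, the wild type order was gpd1 (963 ± 57.9 CPM per kb), sty1 (149.5 ± 5.05), tpp1 (83.3 ± 4.96), tps1 (81.8 ± 3.51), pcr1 (62.1 ± 9.77), wis1 (55.5 ± 2.55), atf1 (32.8 ± 2.23), ntp1 (25.8 ± 1.72) and pyp2 (SD, n = 3). Neighbours in that order whose library ranges overlapped were tpp1 with tps1 and pcr1 with wis1. In delta4dus, tps1 moved to the second place with 206 ± 6.24 CPM per kb, above sty1 at 133 ± 7.38 (SD, n = 3). Atf1, with 67.1 ± 5.88 CPM per kb, came to stand next to pcr1 at 57.4 ± 3.42, and the library ranges of these partners overlapped. Wis1, at 43.6 ± 2.42 CPM per kb, dropped below ntp1 at 48.5 ± 1.19.

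Total RNA could not be used to tell whether the changes lay in mRNA level or in ribosomes per mRNA, because the total RNA rows of these genes held almost no reads. The row of tps1 had 4, 1 and 3 counts in wild type and 1, 2 and 2 in delta4dus, against 2300 footprint counts over the 6 libraries. That of atf1 had 1, 0 and 1 counts in wild type and 3, 4 and 1 in delta4dus, and that of gpd1 had 15, 12 and 23 against 10, 19 and 8, with 13765 footprint counts. Of the 9 rows, 8 had at most 23 counts in every total RNA library, as did 37.5% of all rows. The one fuller row was that of sty1, at 48, 65 and 58 counts in wild type, against 68, 64 and 48 in delta4dus. In the RefSeq annotation of assembly ASM294v3, the long noncoding RNA SPNCRNA.622 lies opposite sty1. Opposite-strand genes cover 82.0% of sty1, but also 85.87% of pyp2 and 84.75% of gpd1, whose rows held at most 23 counts. The part of SPNCRNA.622 in the sty1 row was not tested. All 9 genes have long noncoding RNAs on the opposite strand, a share that was not computed over all genes. Of the 9, 2 also overlap a coding gene there, emc10 for pyp2 and its3 for tpp1.

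Across the tables, total RNA rows followed the opposite strand. Over the 1908 rows with an overlapping coding gene on that strand, total RNA had a Spearman rho of 0.699 with the footprint signal of the partner and of -0.242 with the footprints of the row itself, a description across genes that share libraries. Of the 9 total RNA rows, 3 (sty1, pyp2 and gpd1) passed the filter and none was called by edgeR, where 22.9% of 3791 rows were, 12.5% as higher and 10.4% as lower. The genotypes overlapped in all 9 of these rows, while 37.0% of all rows tested did not overlap. None of the 3 had an unadjusted p under 0.05, and DESeq2 called none, giving no adjusted p for 2 of them. The 95% intervals of their log2 fold changes ran from -0.52 to 0.24 for sty1, from -0.32 to 1.53 for pyp2 and from -1.40 to 0.13 for gpd1.

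**Figure D3:**
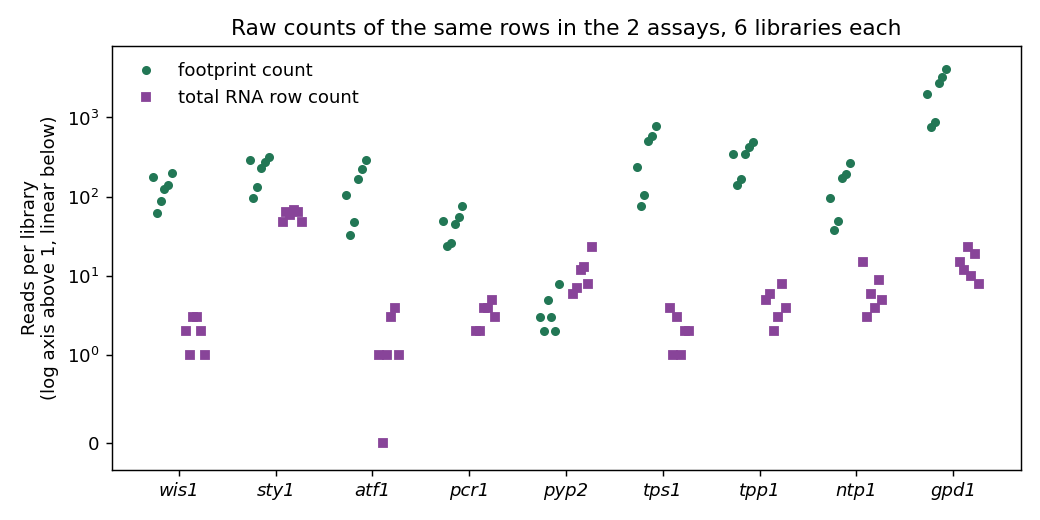
Raw counts of the rows of the 9 genes in the 6 footprint libraries (green circles) and the 6 total RNA libraries (purple squares), on an axis that is logarithmic above 1 and linear below, with wild type A to C and then delta4dus A to C from left to right within each cluster. Total RNA counts stay at or under 23 except for sty1 (48 to 68), and only pyp2 has fewer footprints than total RNA reads over its libraries.

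For 3 of the 9 genes the authors' deposited table gives a call of changed translational efficiency, the ratio of footprints to total RNA, all as higher. At an adjusted p under 0.05 the authors' deposited table calls 15.3% of its 4878 rows with a value, 10.6% as higher. In the authors' deposited table the log2 change of that ratio is 2.54 for tps1 (adjusted p = 0.0260), 1.90 for ntp1 (adjusted p = 0.00385) and 1.62 for gpd1 (adjusted p = 7.16e-05). Its total RNA part is a fall for each (-1.13, -0.88 and -0.90 on the log2 scale in the authors' deposited table), from rows with 13, 42 and 87 counts over 6 libraries. For atf1 the authors' deposited table gives a footprint change of 1.11, a total RNA change of 1.52 and no call of the ratio (adjusted p = 0.786), the total RNA row having 10 counts in all. Because the total RNA rows followed the opposite strand, these ratios are not read as translational efficiency here.

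Several pathway genes upstream of wis1 fell in footprints. Among all genes tested, 14.1% were called lower and 14.5% higher. Of 24 other genes of the Sty1 pathway and its substrates, 22 were tested, 8 fell, 2 rose and 12 were not called. Their median log2 fold change was -0.15, against -0.03 over all genes tested. The largest fall was in wis4, one of the MAP kinase kinase kinases that act on Wis1, from 66.7 ± 12.7 to 34.5 ± 2.77 CPM (SD, n = 3, log2 fold change -0.89, adjusted p = 9.11e-06, edgeR quasi-likelihood). Its relative win1 (-0.70), the sensor histidine kinase genes mak2 (-0.61) and mak3 (-0.62) and the response regulator gene mcs4 (-0.47) were lower as well. Also upstream, the sensor kinase gene mak1 (-0.44, adjusted p = 0.139) and the phosphorelay gene mpr1 (0.24, adjusted p = 0.195) were not called in edgeR. Among the kinases and RNA-binding proteins that Sty1 acts on, srk1 changed by -0.84 (adjusted p = 8.22e-05) and csx1 by -0.45 (adjusted p = 3.70e-05), both in edgeR. Of the same kinds, the kinase gene cmk2 (0.12) and the RNA-binding protein gene rnc1 (-0.08) were not called. Prr1, a response regulator transcription factor, changed by -0.47, a call lost with the replicate block, with DESeq2, after thinning and without 3 of the 6 libraries one at a time. With DESeq2 or after thinning, 5 genes of the list were called lower, and those of mak2 and mcs4 were among the ones lost. The genes that rose were tdh1 (0.21), a glyceraldehyde-3-phosphate dehydrogenase that binds the phosphorelay proteins, and cnt5 (0.56), entered under its synonym csx2 and annotated as a centaurin. Tdh1 turned to -0.0033 with library totals in place of TMM. Phosphatases of the pathway were not called, among them pyp1 (0.30), ptc1 (0.18) and ptc3 (-0.03).

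The Sty1 pathway genes that fell differ widely in coding length. Mak2, mak3, wis4 and win1 have coding sequences of 4206 to 7035 bases, while the other 4 genes that fell are shorter: mcs4 has 1569 bases, prr1 1620, srk1 1743 and csx1 1899. Over the whole range from 1569 to 7035 bases, 1478 genes had a median log2 fold change of -0.18. The 356 tested genes with 3000 bases or more had a median log2 fold change of -0.31, with 38.8% of them called lower. Across 4490 genes, fold change and coding length had a Spearman rho of -0.343. Tps1, atf1, ntp1 and gpd1 have coding sequences of 1158 to 2208 bases, a range in which 1517 genes had a median of -0.07. The part of length in the falls was not tested.

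No tested gene of the other MAP kinase modules was called higher. Of 11 genes of the cell integrity and pheromone modules, 9 were tested, 3 fell, none rose and 6 were not called (median -0.27). Over all genes tested 14.5% were called higher and 14.1% lower, so none higher among 9 is near that share. The members that fell were mkh1 (-0.75), the top kinase of the integrity module, byr1 (-0.70), the MAP kinase kinase of the pheromone module, and the protein kinase C gene pck2 (-0.61). None of the 3 was called with DESeq2 or after thinning, at fold changes mostly as large. Those were -0.72 and -0.83 for mkh1, -0.74 and -0.78 for byr1, and -0.63 and -0.46 for pck2, in that order of settings. The MAP kinase genes themselves, pmk1 (0.01) and spk1 (0.07), were not called.

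Around tps1, genes that supply its substrate rose and its sequence relatives fell. Fyu1, annotated as the UTP-glucose-1-phosphate uridylyltransferase that makes UDP-glucose, rose from 572 ± 49.5 to 1258 ± 24.4 CPM (SD, n = 3, log2 fold change 1.14, adjusted p = 1.57e-29, edgeR quasi-likelihood). Pgm1, the phosphoglucomutase one step before, rose to 511 ± 33.0 CPM from a wild type level of 300.0 ± 26.2 (0.77, adjusted p = 2.86e-16). SPAC22F8.05, annotated as a trehalose-phosphate synthase, fell from 65.6 ± 6.33 to 34.5 ± 5.42 CPM (-0.99, adjusted p = 4.68e-07). Tps2, also annotated as a trehalose-phosphate synthase, changed by -0.88, a call lost only after thinning among 12 alternatives (adjusted p = 0.274). In the glycerol branch, gpd2, the paralogue of gpd1, was not called (-0.12, adjusted p = 0.203), and gld1, a glycerol dehydrogenase, fell from 8.00 ± 3.89 to 1.67 ± 1.26 CPM. The gld1 row held only 10, 8 and 5 counts in wild type and 5, 2 and 2 in delta4dus (adjusted p = 0.0012, edgeR quasi-likelihood). The dihydroxyacetone kinase gene dak1 changed by -0.21, and its call was lost in 9 of 13 alternatives. The shares called over all genes tested were 14.5% higher and 14.1% lower. Of the 12 matched genes of this list 10 were tested, 2 rose, 4 fell and 4 were not called (median -0.16). Of its names, 2 denote other enzymes than intended: tpp2 is tripeptidyl-peptidase II and gpd3 is a glyceraldehyde-3-phosphate dehydrogenase, and neither was called. Both are part of these counts and of the median. Their log2 fold changes of 0.25 (tpp2) and 0.08 (gpd3) lie above it, so the median without them is lower.

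Other genes of the core stress response moved both ways beside tps1, ntp1 and gpd1. The list used here was chosen with earlier results of these data known. Over all genes tested, 14.5% were called higher and 14.1% lower. Of 21 core stress response genes outside the 9, 15 were tested, 9 rose, 4 fell and 2 were not called, with a median of 0.39. The J-domain co-chaperone gene psi1 rose most (2.18, adjusted p = 3.42e-32), and bip1, the Hsp70 of the endoplasmic reticulum, rose by 0.82 (adjusted p = 3.68e-20). Sro1 (1.63) and the pyridoxal reductase gene plr1 (1.06) also rose. In contrast, rds1, a stress-inducible gene, fell from 302 ± 24.5 to 130.2 ± 11.6 CPM (SD, n = 3, -1.19, adjusted p = 3.08e-21), hsp9 changed by -0.68 and the metallothionein gene zym1 by -1.13. The catalase gene ctt1, a long-known Atf1 target, changed by -0.53, a call lost after thinning (adjusted p = 0.214). With library totals in place of TMM, 5 of these genes were called higher in place of 9. The calcium ATPase gene cta3 and the gluconeogenic gene fbp1, both targets of Atf1, had means of 0.917 to 2.71 CPM in either strain and were not tested.

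**Figure D4:**
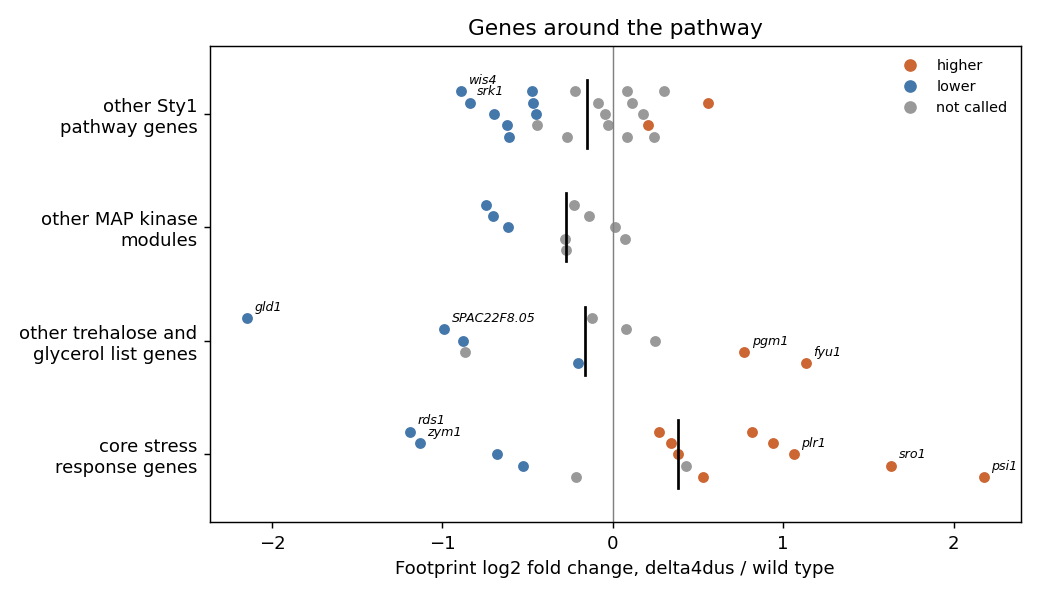
Footprint log2 fold change (delta4dus over wild type) of the tested genes of 4 lists around the pathway, without the 9 genes, 1 point per gene, with genes called higher in orange, called lower in blue and not called in grey, and a black bar at the list median. The medians are -0.15, -0.27, -0.16 and 0.39 from top to bottom, and points are spread vertically for legibility. The trehalose and glycerol list and its median include tpp2 and gpd3, which are other enzymes than intended.

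Genes whose footprints were most like those of tps1 were looked up among 1925 genes with a mean of at least 50 CPM, by the distance between log2 CPM (with 1 CPM added) centred on each gene's mean over the 6 footprint libraries. The nearest were wos2, a p23 co-chaperone of Hsp90 (distance 0.131), mix17, a CHCH domain protein (0.183), adg2 (0.207), the thioredoxin gene trx1 (0.225) and eng1, an endoglucanase of cell separation (0.227). Their log2 fold changes ran from 1.18 to 1.43. Of the other genes of the set, atf1 stood at place 19 in this order (distance 0.407), ntp1 at place 28 (0.563) and gpd1 at place 67 (0.883), while tpp1 (884), sty1 (1433) and wis1 (1686) stood far down. The distance follows mostly the genotype fold change, so these places restate the fold changes above and are no separate evidence.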

How the data were processed

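The authors deposited raw read counts per transcript for footprints and for total RNA, whole numbers with no normalization. Per the submitters' processing notes, Trimmomatic 0.36, Bowtie2 2.4, HISAT2 and featureCounts were used on ASM294v2; strand setting and annotation are not given in the sources used here. Log2 changes and adjusted p-values of the authors were deposited in a further table, whose header names no tool.

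The 12 count columns were matched to samples by genotype and letter, and 5107 of 5136 rows were matched by systematic ID to RefSeq ASM294v3. That assembly was used for names, coding lengths and neighbouring genes only, since it is not the build of the notes; no coordinates or sequences from it are reported. Each assay was fitted over its whole table, 3 against 3 libraries, with edgeR 4.0.16 in R 4.3.3 (quasi-likelihood, TMM, default filterByExpr, full library totals, two-sided, Benjamini-Hochberg over all genes tested). SE is the log2 fold change over the square root of F. The fit was tested on simulated data. Alternatives were DESeq2 1.42.0, other scalings and filters, the replicate letter as a block, each library left out, and libraries thinned to 601969 footprint or 1886954 total RNA counts. The ratio of footprints to total RNA was not tested. Counts per library set the precision.

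The members and lists were chosen with earlier results of these data known. Named genes were the 9, up to 3 called genes per list, by smallest p, the 5 genes nearest to tps1 and the dus genes; other list genes and the ratio pairs were named after their values were seen. Permutation tests used scipy 1.17.1 and figures matplotlib 3.10.9, under Python 3.11.15.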

Additional observations from a re-analysis of the deposited data

How the results depend on the processing

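The calls of tps1, atf1, ntp1 and gpd1 held in all 13 alternatives each, with log2 fold changes of 1.12 to 1.36, 0.82 to 1.08, 0.74 to 1.04 and 0.43 to 0.68. Of 140 recomputed values of the members in both assays, 133 were counted as unchanged, 5 (wis1) lost a call and 2 (sty1) gained one. The 133 include 2 total RNA values for which DESeq2 gave no adjusted p, so their side of the threshold is unknown. The number of members called lower, 1 in the main test, was 0 with DESeq2 and after thinning, 2 with library totals alone and with a mean of 50 counts required, and 0 to 1 when a library was left out. Over all genes, footprints gave 654 higher and 634 lower. With DESeq2 335 were lower, with library totals 334 were higher and 1396 lower, and after thinning 352 were lower. Leaving out a library gave 517 to 619 higher and 437 to 584 lower. Library totals moved the median change of all genes by -0.20 in footprints and 0.19 in total RNA and turned tdh1 to -0.0033. Total RNA rows gave 475 higher and 394 lower, with DESeq2 229 higher, with library totals 824 higher and 81 lower, with upper-quartile factors 593 lower, and 262 to 434 higher and 187 to 478 lower with a library left out. Same-lettered libraries deviated together only weakly in footprints (Pearson r across genes 0.016 to 0.073, against -0.056 to 0.003 for unlike letters). In total RNA r was -0.489 to 0.018 for the same letter and -0.315 to 0.365 for unlike letters. The labels state no pairing, and the letters were not taken as pairs. The replicate block gave 297 higher and 197 lower total RNA rows, and no member's call changed with it. With no length scaling, the wild type order of levels changed most for pcr1, from place 5 to 8, below atf1, and ntp1 moved from 8 to 6, wis1 from 6 to 5, sty1 from 2 to 3 and tpp1 from 3 to 2. The causes of these shifts were not tested. Low counts limit pcr1 and pyp2 in footprints and all members but sty1 in total RNA, where the libraries themselves are no shallower than most footprint libraries. Because total RNA rows followed the opposite strand across the tables, the fuller row of sty1 is not read as its mRNA either.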
